A study of Rattus norvegicus with 12 samples.

Results

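Of 4376 CpGs listed as different between the islets of growth-restricted and control rats, 342 lay within 10000 bases of another listed CpG on the same numbered chromosome. These 342 CpGs were chosen by their position within a list that the authors had selected on the difference between the groups. They formed 168 groups, each a run of listed CpGs with gaps of at most 10000 bases. When CpGs with equal scores anywhere on a chromosome were counted once before grouping, 170 CpGs in 84 groups were left. That setting also thinned the listed CpGs outside groups, and by how much is not given here. The 342 made up 8.14% of the 4203 listed CpGs on numbered chromosomes, and the other 3861 had no listed CpG that close. The 173 listed CpGs on the sex chromosomes were not grouped. Since every CpG here was listed for its score difference, directions and sizes below are a description, with no test between the groups.

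The samples were pancreatic islets of rats aged 2 weeks, from controls and from animals with intrauterine growth restriction (IUGR), whose libraries carry SGA in their titles. Each group has 3 replicate numbers in the labels, every one with a library per enzyme (HpaII, MspI), which makes 12 libraries. Scores were deposited for 3 control columns (C1 to C3) and 2 IUGR columns (IUGR1 and IUGR2), and which libraries a column combines is not stated. Neither is how growth was restricted, nor whether a replicate is an animal or a pool, so the spread between columns may be technical. Without gene names in the tables, the islet label was not checked against markers.

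DNA methylation at CpG dinucleotides is a mark that is copied when cells divide and that is often shared by neighbouring sites. HpaII and MspI both cut at the CCGG site, but HpaII is blocked by methylation of its inner cytosine and MspI is not, which is the basis of HELP-tagging. Islets hold the insulin-secreting beta cells, and poor growth before birth is a known setting for lasting changes in their function. The authors' HELP score runs from 0 to 100, and the sources used here do not name its methylated end, so results are given as higher or lower scores. The number of tags behind each score is unknown, and islets hold several cell types, so a change within cells and a change in cell makeup cannot be told apart.

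Nearly all groups were pairs. There were 162 groups of 2 CpGs and 6 groups of 3, and none was larger. Spans ran from 6 to 16270 bases with a median of 4317 bases. The authors' table also carries a running number, which rises with position along each chromosome and was read as numbering the CpGs that could have been listed. By that number the 168 groups covered 1252 numbered CpGs, of which the 342 members were 27.3% and 910 were not listed. In 32 groups the members had consecutive numbers, and in 136 at least 1 unlisted number lay between them. The largest count of unlisted numbers inside a group was 29, and 31 groups had 10 or more. Most groups were therefore not unbroken runs of listed sites.

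Group members mostly scored near the bottom of the scale in control islets and high in IUGR islets. The score was higher in IUGR islets at 305 members and lower at 37. The higher ones were 89.2% of the 342, with an exact Clopper-Pearson 95% interval of 85.4% to 92.3% that treats CpGs as independent. Among the CpGs without a listed neighbour, 3527 of 3861 were higher, 91.3% (90.4% to 92.2%), and the intervals overlapped. In the whole list the IUGR scores lay above every control score at 91.2% of CpGs and below every control score at 8.8%. The groups did not overlap at any of the 342 members either, and since the list was selected on this difference, nothing is read from that.

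At the 305 higher members, the mean score was 0.607 in C1, 0.655 in C2 and 0.890 in C3, against 82.7 in IUGR1 and 81.1 in IUGR2. All 3 controls were at 0 at 285 of them, 93.4% (exact interval 90.1% to 95.9%), and exactly 1 control was above 0 at the other 20. The same share was 89.6% (88.6% to 90.6%) at higher CpGs without a neighbour. IUGR scores of higher members ranged from 50.8 to 99.86, and the median SD of a member's 2 IUGR scores was 5.11. At the 37 lower members the mean score was 83.4 in C1, 81.1 in C2 and 82.3 in C3, with 0 in IUGR1 and 1.99 in IUGR2. Both IUGR scores were at 0 at 34 of these, and 3 had 1 IUGR score above 0.

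The median absolute difference was 80.6 (quartiles 74.4 to 88.1) for members and 78.3 (72.8 to 85.4) for CpGs without a neighbour. The quartile ranges overlapped. The smallest absolute difference in the list was 69.5, so smaller differences near these CpGs cannot be seen.

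The 6 groups of 3 CpGs show the range of patterns, and were picked for their size after the sizes were seen. On chromosome 12 the group from 43902687 to 43908074 was uniform. All 3 of its CpGs were at 0 in the 3 controls, and in IUGR1 and IUGR2 they scored 96.0 and 90.1 at 43902687, 85.4 and 94.1 at 43907834, and 88.3 and 94.3 at 43908074. The group on chromosome 6 from 23547021 to 23556920 was also at 0 in controls throughout. Its IUGR scores were 80.7 and 64.5, then 72.1 and 68.2, then 94.5 and 87.7, so that the last CpG stood above the others in both columns. The widest group of all, on chromosome 14 from 43913533 to 43929803, had IUGR scores of 91.5 and 72.1, then 61.0 and 82.6, then 90.1 and 80.7. There the middle CpG was the lowest in IUGR1 and the highest in IUGR2.

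On chromosome 20 the group from 12974434 to 12981868 was at 0 in controls. The CpG at 12974434 scored 72.1 in both IUGR columns, and those at 12975038 and 12981868 had the same scores as each other, 85.4 in both columns. The remaining groups of 3 held both directions. On chromosome 18, the CpGs at 22793326 and 22793714 were at 0 in controls and at 78.5 in both IUGR columns. At 22798197, 4483 bases further on, the scores were 90.1, 91.4 and 91.4 in C1, C2 and C3 and 0 in both IUGR columns. Chromosome 1 held the sharpest change over a short distance. The CpG at 264008942 scored 90.1, 72.1 and 80.7 in the controls and 0 in both IUGR columns. Only 12 bases further, at 264008954, the scores were 0, 29.1 and 0 in the controls and 82.0 and 79.2 in the IUGR columns. The third CpG of that group, at 264002715, was at 0 in controls and at 90.1 in both IUGR columns.

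**Figure D1:**
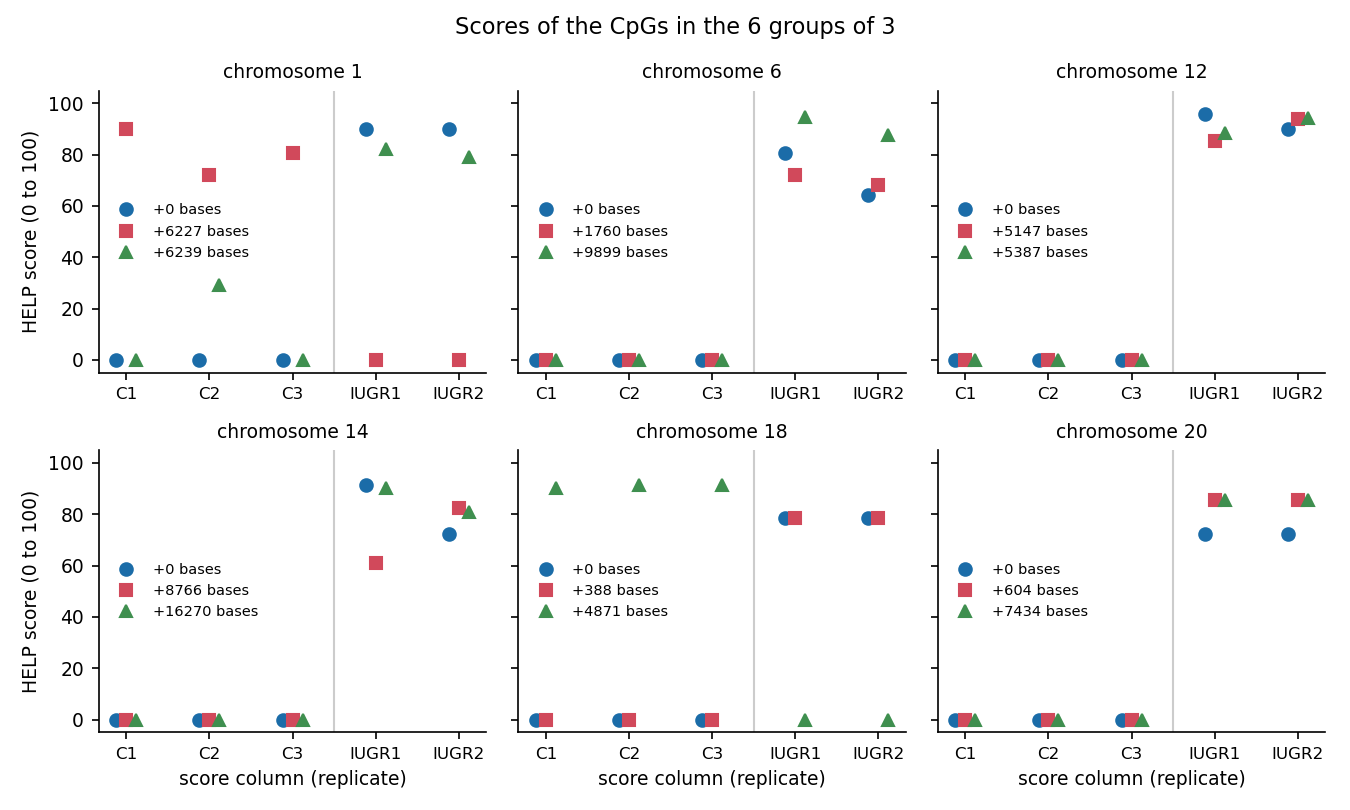
HELP score (vertical axis, 0 to 100) in each control (C1 to C3) and IUGR (IUGR1, IUGR2) column for the 6 groups of 3 CpGs. Each symbol is 1 CpG, named by its distance in bases from the first of its group, and symbols are shifted sideways so that all can be seen. In 4 groups all 3 CpGs are at 0 in controls and high in IUGR islets, and on chromosomes 1 and 18 one CpG does the opposite.

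Most groups kept to 1 direction. In 138 groups all members were higher in IUGR islets, in 7 all were lower, and 23 held both. The 145 groups with 1 direction made up 86.3% (exact interval 80.2% to 91.1%). Since most listed CpGs are higher, this share has to be read against neighbours further apart. Of the 174 adjacent pairs within groups, 150 shared a direction, 86.2% (80.2% to 91.0%). Of the 4009 adjacent pairs over 10000 bases apart, 3447 did, 86.0% (84.9% to 87.0%). Direction was thus shared about as often by close as by distant neighbours in this list, where most pairs were higher at both CpGs. Both CpGs were lower in 7 of the 174 close pairs and in 69 of the 4009 distant pairs, a contrast that was not tested. In every distance class the share lay between 83.6% and 90.0%, with overlapping intervals, from 9 of 10 pairs up to 50 bases apart to 2774 of 3242 pairs over 100000 bases apart. Of the 37 lower members, 14 lay in groups with lower members alone and 23 lay beside higher ones.

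**Figure D2:**
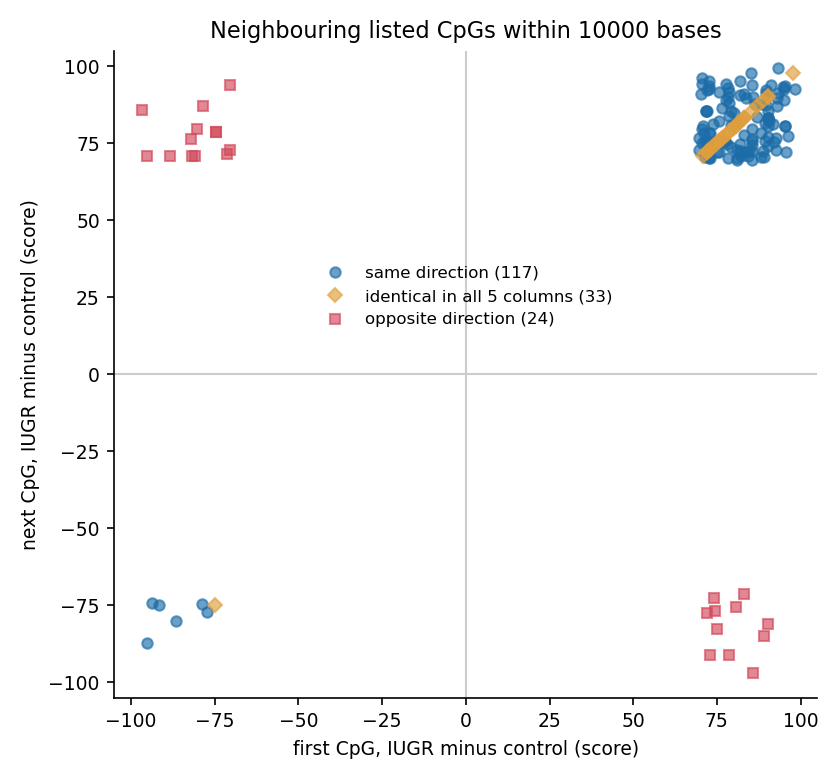
Difference in score (IUGR minus control) of each CpG in a group against that of the next CpG in the same group, for 174 adjacent pairs. Blue circles share a direction, orange diamonds have the same scores in all 5 columns, and red squares have opposite directions. The empty middle comes from the list, which holds no absolute difference under 69.5, and 24 pairs lie in the opposite corners.

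Identical scores made up a larger share of close neighbours than of distant ones. Of the 174 adjacent pairs within groups, 33 had equal scores to 4 decimals in all 5 columns, 18.97% (13.4% to 25.6%). Beyond 10000 bases 79 of 4009 pairs did, 1.97% (1.56% to 2.45%). It was 1 of the 10 pairs up to 50 bases apart (0.253% to 44.5%), 43.3% of the 30 pairs 51 to 1000 bases apart (25.5% to 62.6%), and 11.9% and 16.0% of pairs in the next classes, up to 5000 and 10000 bases. The share was 8.18% in the class from there to 20000 bases and 1.51% over 100000 bases. These intervals treat pairs as independent and cover counting error only. All controls were at 0 at 285 of the 305 higher members, so for most pairs equal scores in the control columns add little to equal IUGR scores.

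**Figure D3:**
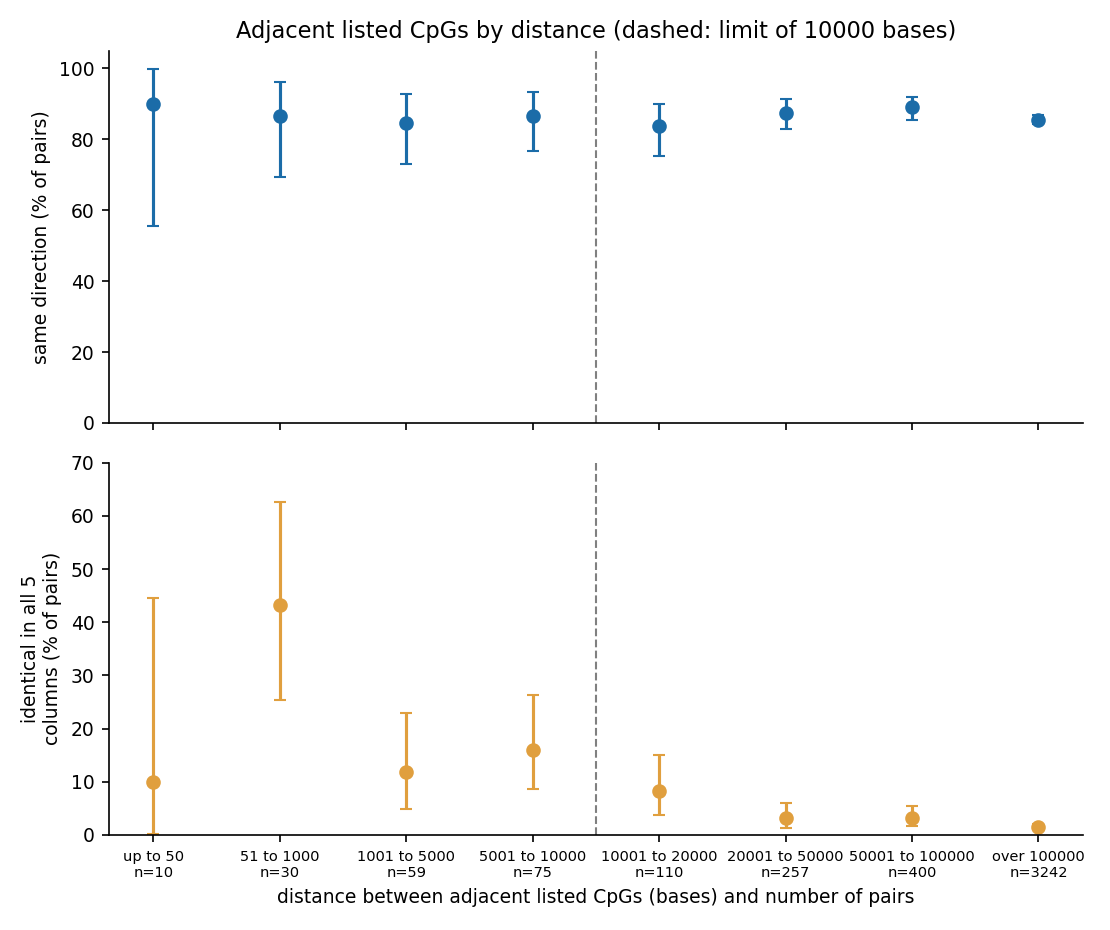
Adjacent listed CpGs on numbered chromosomes by the distance between them (horizontal axis, bases, with the number of pairs). The upper panel gives the percentage with the same direction and the lower panel the percentage with the same scores in all 5 columns; points are shares and bars exact 95% intervals. The upper shares stay between 83.6% and 90.0%, while the lower share is highest, 43.3%, at 51 to 1000 bases and 1.51% at over 100000 bases.

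Part of this identity sits on scores that recur across the list. The commonest set of 5 scores, 0 in all controls and 72.1 in both IUGR columns, occurred at 147 listed CpGs, 15 of them group members. Members showed 85 distinct scores above 0 in IUGR1 and 85 in IUGR2. In 31 of the 168 groups all members were identical, 30 of them higher and 1 lower. For 21 of these the same scores stood at 10 or more listed CpGs. For 6 they stood at the pair and at no other listed CpG. Such pairs were 6 of the 174 adjacent pairs within groups and 14 of the 4009 over 10000 bases apart, a contrast that was not tested. How often recurring scores alone would give close neighbours equal values was not tested. About the same share of members (74.0%) and of CpGs without a neighbour (73.2%) shared their 5 scores with another listed CpG.

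Pairs whose scores occurred at no other listed CpG included strong ones. On chromosome 10 the CpGs at 4733683 and 4741533, 7850 bases apart, were at 0 in all controls and both at 96.0 in IUGR1 and 99.2 in IUGR2. The pair at 168390359 and 168390991 on chromosome 3 had 87.85 in IUGR1 and 92.85 in IUGR2 at each CpG and 0 in every control. The identical lower pair lay on chromosome 9 at 114522099 and 114530329. Both CpGs scored 76.3, 69.5 and 78.7 in C1, C2 and C3 and 0 in both IUGR columns. Wider identical pairs with recurring scores included 166629018 and 166638674 on chromosome 4, at 72.1 in both IUGR columns. On chromosome 12, 31971189 and 31980719 were both at 64.5 in IUGR1 and 86.9 in IUGR2. A pair on chromosome 2, at 45437869 and 45446576, was at 87.7 and 57.8, and a pair on chromosome 1, at 247879813 and 247888150, at 87.3 and 62.1. In each of these wider pairs the 3 controls were at 0. On chromosomes 1, 2 and 12 the IUGR columns differed from each other while the 2 CpGs of a pair had equal scores.

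Of the 32 groups with consecutive numbers, 12 were identical (37.5%), against 19 of the 136 with unlisted numbers between (14.0%). Among the consecutive groups, 1 of 9 spanning 6 to 34 bases was identical (exact interval 0.281% to 48.3%). The count was 10 of 19 at spans of 97 to 899 bases (28.9% to 75.6%) and 1 of 4 at 1098 to 4850 bases (0.631% to 80.6%). These intervals overlap.

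The shortest groups had members only a few bases apart, with unequal IUGR scores. On chromosome 8, the CpGs at 56696729 and 56696735 lay 6 bases apart and scored 85.4 and 72.1 at the first and 92.6 and 83.4 at the second in IUGR1 and IUGR2. On chromosome 5, 168233858 and 168233865 had the same score in IUGR1, 80.7, but 90.1 and 72.1 in IUGR2. The pair on chromosome 6 at 7288667 and 7288674 had 90.1 in both columns at the first CpG and 94.1 and 72.1 at the second. On chromosome 16, 70648411 scored 86.9 and 64.5, and 70648418 scored 72.1 in both columns. The remaining one, on chromosome 6 at 69970463 and 69970472, was high throughout, at 90.1 and 99.1 and at 92.3 and 94.2. Controls were at 0 in all 5 pairs. None of these pairs had equal scores in both IUGR columns, although all members were higher in IUGR islets.

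The strongest groups crossed nearly the whole scale. By mean difference the first of those with higher scores was the identical pair on chromosome 10 described above, at a difference of 97.6. Next came chromosome 9 at 121362768 and 121362866, 98 bases apart, with IUGR scores of 96.5 and 90.1 and of 99.86 and 99.01. On chromosome 20, 9429689 scored 98.0 and 98.9 and 9432965 scored 95.04 and 90.1. Chromosome 6 held the other 2, the pair at 69970463 and 69970472 and the pair at 136717964 and 136720599, which scored 94.1 and 96.6 and then 90.1 and 96.7. All controls of these pairs were at 0.

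The 7 groups with lower scores alone spanned 34 to 9687 bases, a median of 6846 bases. On chromosome 9 the CpG at 93546136 scored 92.6, 97.0 and 96.3 in the controls and the CpG at 93546829 scored 83.8, 91.8 and 86.0, with 0 in both IUGR columns at each. On chromosome 17, 60538627 scored 93.3, 91.8 and 95.9 in controls and 0 in IUGR islets. Its neighbour at 60540574 was more uneven, at 67.6, 88.8 and 90.1 in controls and at 0 and 16.0 in the IUGR columns. The closest lower pair, on chromosome 14 at 10625015 and 10625049, differed in level although 34 bases apart: the first scored 90.1, 95.04 and 90.1 in controls and the second 72.1, 72.1 and 80.7, with 0 in IUGR islets at both. On chromosome 1, 224776742 scored 85.4, 85.4 and 88.9 in controls, a mean of 86.6 ± 2.07 (SD, n = 3), and 224786429 scored 57.8, 92.7 and 89.7, a mean of 80.1 ± 19.4 (SD, n = 3), with both at 0 in IUGR islets. The pair on chromosome 20 scored 90.1, 83.8 and 57.8 at 3394288 and 77.2, 90.1 and 64.5 at 3401722 in C1, C2 and C3, and was at 0 in IUGR islets. The spread between controls ranged widely across these groups. Nothing is read from the lack of overlap between their control and IUGR scores, since the list was selected on this difference.

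Groups with both directions spanned 525 to 9731 bases. Of their 24 opposite neighbours, 3 had consecutive numbers, out of 36 consecutive neighbours in all, and 21 had unlisted numbers between, out of 138. Besides the 2 CpGs 12 bases apart on chromosome 1, the consecutive ones were on chromosome 1 at 135936857 and 135937382, at 0 in controls and 88.5 and 77.8 in IUGR islets and then at 86.9, 43.0 and 84.4 in controls and 0 in IUGR islets, and on chromosome 6 at 137609396 and 137610123. The latter scored 96.0, 80.7 and 64.5 in controls and 0 in IUGR islets at the first CpG, and 0 in controls and 95.04 and 64.5 in IUGR islets at the second, 727 bases away. Both pairs were chosen for consecutive numbers after their values were seen, the second also by the rule for both directions.

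The remaining opposite pairs with the largest gaps lay on several chromosomes. On chromosome 3, 164090093 scored 0 in every control, with 92.6 and 85.4 in the IUGR columns, while 164095679 was at 97.5, 72.1 and 85.4 in controls and at 0 in IUGR islets. On chromosome 12, 19595278 scored 92.9, 97.5 and 95.5 in controls and 0 in IUGR islets, and 19600092 scored 0 in controls and 57.8 and 83.8 in IUGR islets. The pair on chromosome 5 scored 87.7, 90.1 and 57.8 in controls and 0 in IUGR islets at 74791274, against 0 in controls and 93.4 and 80.7 in IUGR islets at 74794539. That on chromosome 7 was lower at 35471473, where the controls were at 94.8, 84.7 and 82.3, IUGR1 at 0 and IUGR2 at 33.6. At 35472015, 542 bases away, the controls were at 0 and the IUGR columns at 97.8 and 90.1. On chromosome 9, 36715385 scored 0 in controls and 77.8 and 68.2 in IUGR islets, and 36725116 scored 90.1, 91.4 and 91.4 in controls and 0 in IUGR islets.

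Some groups recurred on their own chromosome, and were picked after their values were seen. The same score sets, at nearly the same spacing, stood in 8 groups that formed 4 sets of 2 on the same chromosome, 16 CpGs in all. On chromosome 12 the pair at 8832791 and 8835558 was matched by the pair at 9039694 and 9042459, 206.9 kb away, in reverse order. In each, 1 CpG was at 0 in controls and at 86.3 and 85.4 in IUGR islets, and the other at 95.04, 98.2 and 97.2 in controls and at 0 in IUGR islets. The spacings were 2767 and 2765 bases, and no other listed CpG had these scores. On chromosome 7, 25485027 and 25488321 matched 25776990 and 25780284, both 3294 bases apart. The first CpG of each pair scored 82.3, 54.8 and 86.5 in controls and 0 in IUGR islets, and the second 0 in controls and 85.4 and 72.1 in IUGR islets. The scores of the first stood at these matched CpGs alone, and those of the second at 68 listed CpGs. Both of these sets hold opposite directions, so the 23 groups with both directions are 21 when matched groups are counted once.

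Chromosome 15 held the other sets. The pair at 3726615 and 3735181 matched the pair at 3972354 and 3980920, each 8566 bases apart, at 95.04 and 95.75 at the first CpG and 80.7 in both IUGR columns at the second. The pair at 30920873 and 30925723 matched 32238351 and 32243201, each 4850 bases apart and 1317.5 kb from the other, with 90.1 in both IUGR columns at the first CpG and 88.5 and 77.8 at the second. Controls were at 0 in all of these. The scores at 3726615 stood only at its match, but those at 3735181 stood at 86 listed CpGs, those at 30920873 at 91 and those at 30925723 at 7. Score sets also recurred between chromosomes, where the scores of 6 further groups matched those of a group elsewhere. These were identical pairs with scores that stood at 147 or 86 listed CpGs. Their spans did not match, and ran from 15 to 9656 bases. The CpGs at 3726615 and 3972354 each began a region listed by the authors, of 6012 bases and 11 CpGs. Both regions had the same scores, 0, 7.6 and 2.7 for controls and 17.4 and 21.8 for IUGR islets. How tags that align to several places were treated is not stated, and whether matched groups are separate measurements was not tested.

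A larger share of group members than of other listed CpGs lay inside the authors' listed regions. The authors' second table lists 512 regions of 4 or more CpGs, made from the same samples, so this is a second view of the same contrast. Of the 342 members 35 lay inside a region, 10.2% (exact interval 7.23% to 13.9%), against 139 of 3861 CpGs without a neighbour, 3.60% (3.03% to 4.24%). Regions held 15 groups whole. Every region counts at least 2 CpGs as different, so the region list and the rule on distance overlap in what they select. The order of replicates in a region's list is not stated.

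In 10 of the 15 such regions the number of members equalled the number of CpGs that the authors' deposited table counts as different there, and 25 of the 31 members stood at a region's first or last base. On chromosome 6 the region from 50846780 to 50847066 held 6 CpGs in 286 bases. Its mean score was 54.3 ± 2.81 (SD, n = 3) in controls, against 83.3 ± 0.566 (SD, n = 2) for IUGR. Its border CpGs, the group itself, were at 0 in controls and at 94.1 and 87.4 and at 76.8 and 87.7 in IUGR islets. The region as a whole was thus well above 0 in controls while both of its border sites were at 0. The region on chromosome 16 from 55148423 to 55153109 was alike, at 51.1 ± 3.46 (SD, n = 3) for controls against 82.6 ± 4.38 (SD, n = 2) for IUGR over 9 CpGs. Its members at 55152366 and 55153109 were at 0 in controls and at 83.6 and 80.04 and at 86.8 and 94.2 in IUGR islets.

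On chromosome 3 the identical pair at 168390359 and 168390991 lay in a region of 8020 bases and 9 CpGs, which listed scores of 15.1, 16.9 and 12.4 for controls and of 39.6 and 38.5 for IUGR islets. The lower pair on chromosome 9 at 93546136 and 93546829 marked both ends of the 1 lower region among the 15. That region held 6 CpGs and scored 80.3, 91.3 and 87.1 in the controls and 56.0 and 56.4 in IUGR islets. The group of 3 on chromosome 18 lay in a region of 4 CpGs, of which 3 were counted as different. The region scored 22.5, 27.6 and 22.8 in controls and 39.2 in both IUGR columns, a difference of 14.9 that joins 2 higher CpGs and 1 lower one. Over the 15 regions, which were picked for holding CpGs listed for a large difference, the absolute difference ran from 14.9 to 49.3 with a median of 32.7. The median over all 512 listed regions was 21.8.

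**Figure D4:**
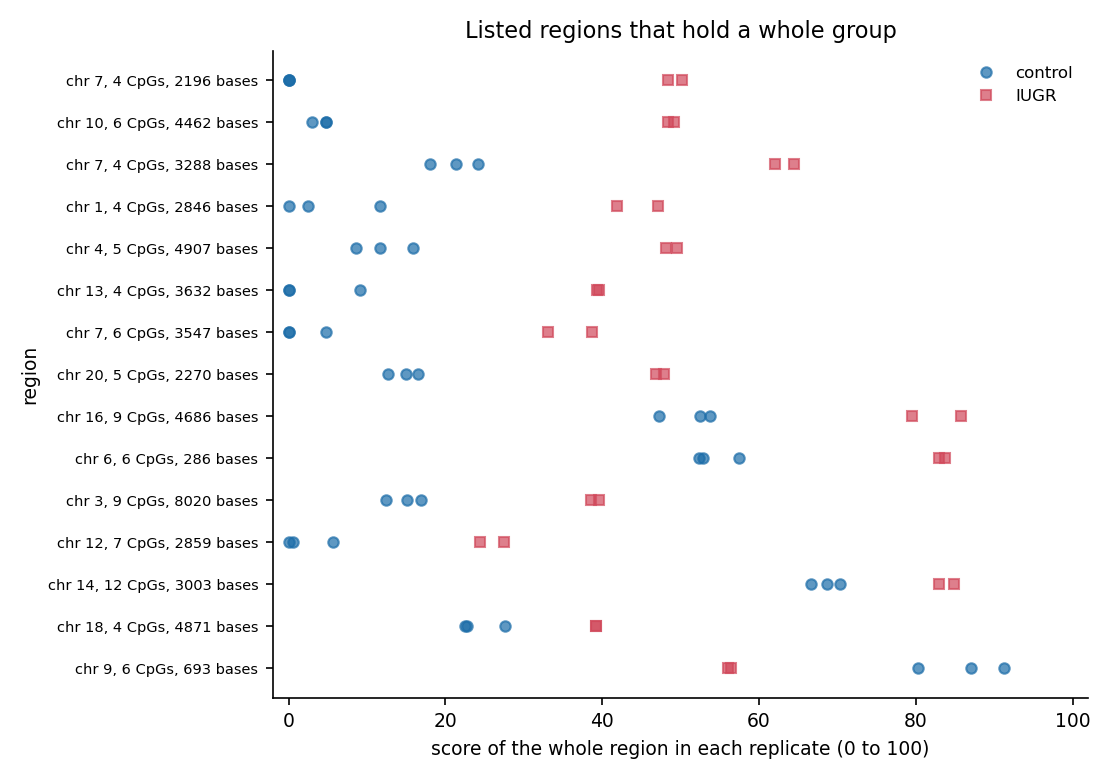
Scores of the 15 listed regions that hold a whole group (rows, with chromosome, number of CpGs and length), from the authors' lists of 3 control (blue circles) and 2 IUGR (red squares) values per region. In 14 regions both IUGR values lie above every control value, and on chromosome 9 the region of 693 bases lies lower, at 56.0 and 56.4 against 80.3 to 91.3. All were listed for a difference between the same groups, and the share over the whole region list is not given here.

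Groups were spread over all 20 numbered chromosomes. The share of listed CpGs that lay in a group ran from 1.64% on chromosome 19 (2 of 122, exact interval 0.199% to 5.80%) to 15.1% on chromosome 12 (25 of 166, 9.99% to 21.4%). Chromosome 20 followed with 13.8% (17 of 123) and chromosome 6 with 12.7% (29 of 228), while chromosome 10 had 3.92% (10 of 255) and chromosome 13 had 3.90% (6 of 154). The 4 chromosomes with the most numbered CpGs per kb (0.840 to 1.10), which are 10, 12, 19 and 20, sat at both ends. Together they had 54 of 666 listed CpGs in groups, 8.11%, against 288 of 3537, 8.14%, on the other chromosomes. Chromosome 12 also had the most listed CpGs per Mb, 3.28, against 1.19 on chromosome 18, the fewest. Across the 20 chromosomes the share in groups had Pearson's r of 0.333 and Spearman's rho of 0.0887 with listed CpGs per Mb, given as a description.

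**Figure D5:**
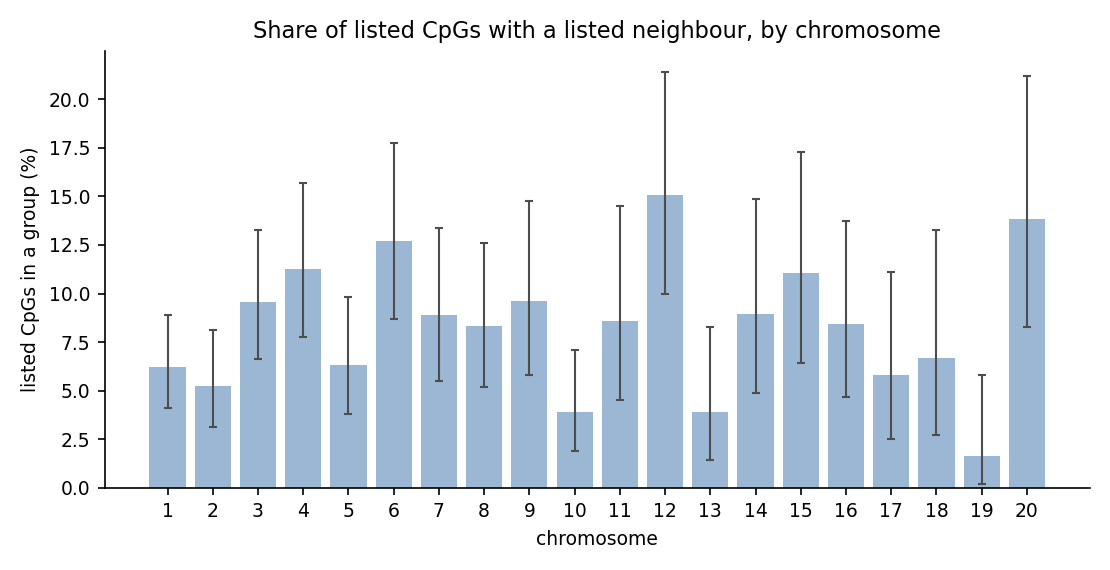
Percentage of the listed CpGs of each numbered chromosome that lie within 10000 bases of another listed CpG (bars), with exact 95% intervals (lines). Chromosomes 12 and 20 are highest, at 15.1% and 13.8%, and chromosome 19 is lowest, at 1.64%; most intervals overlap.

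The surroundings of groups held slightly more numbered CpGs than those of other listed CpGs. From the listed CpG before a group to the one after it, the median was 0.835 numbered CpGs per kb (quartiles 0.593 to 1.12), against 0.784 (0.537 to 1.05) from one neighbour to the other around CpGs without a group. Within groups the median was 1.54 per kb, which the short distance between members partly sets.

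The 5 widest pairs inside the limit of 10000 bases spanned 9723 to 9971 bases, and the 5 closest outside it 10010 to 10646 bases. The widest were 9971 bases apart on chromosome 11, at 64736600 and 64746571 with differences of 73.0 and 78.3, and 9848 bases apart on chromosome 6, at 98815431 and 98825279 with 83.8 and 72.1. Just outside, 165466796 and 165476806 on chromosome 3 lay 10010 bases apart with differences of 83.2 and 70.1, and 28986842 and 28997064 on chromosome 10 lay 10222 bases apart with 72.6 and 93.8. Of these 10 pairs, 9 were higher in IUGR islets at both CpGs, and the pair on chromosome 9 at 36715385 held both directions.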

How the data were processed

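HELP-tagging libraries were made from rat islet DNA after HpaII or MspI digestion, per the labels' protocols, with the submitters' processing notes naming rn6 (Rnor_6.0) as the build. The authors deposited a HELP score per CpG and column, an unadjusted p-value per CpG, and for each region lists of scores with numbers of CpGs (its p-value and q-value were not used). The aligner, counting and filters behind them were not given in sources used here, and depth is unknown, so precision rests on the 3 control and 2 IUGR columns. Columns were used by group.

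One repeated row was dropped. CpGs on numbered chromosomes were sorted and joined where gaps were at most 10000 bases. On simulated positions the finding of short gaps was checked, but not the forming of groups or the breaks between chromosomes. Group means and differences (IUGR minus control) were recomputed. Equal scores means equal to 4 decimals. Intervals are exact Clopper-Pearson 95% intervals. No test between groups was run, because the list was chosen on that difference. Members, distance classes and alternatives were chosen with earlier results of these data known. Named groups were those of 4 or more CpGs (there were none), the 5 with the largest mean difference in each direction, up to 10 with both directions, the 5 shortest, the 5 with most members inside a region (ties by shorter span), the 5 widest identical ones, and pairs at the limit; others were named after their values were seen. Without an annotation on rn6, genes and sequences were not analysed here. Python 3.11.15, numpy 2.4.6, pandas 2.3.3, scipy 1.17.1 and matplotlib 3.10.9 were used.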

Additional observations from a re-analysis of the deposited data

How the results depend on the processing

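Counts followed the limit on distance: 80, 197 and 549 CpGs in 40, 98 and 265 groups at 1000, 5000 and 20000 bases. At 1000 bases 35.0% of groups were identical, and at 5000 bases 16.2% of members lay inside a region. Keeping only absolute differences of at least 80 left 111 CpGs in 55 groups, with 92.8% of CpGs higher, 92.7% of groups in 1 direction, a median absolute difference of 87.7, 18.9% inside a region and 25.5% of groups identical. Counting equal scores on a chromosome once left 170 CpGs in 84 groups, with 83.5% higher. No share counted this way was computed for CpGs without a neighbour, so 83.5% has no counterpart there. The cause of these shifts was not tested, and each of these settings also changed the number of grouped CpGs. Among the other 53 of 71 values, shares stayed within their interval. Medians of the absolute difference moved by less than 4.50, the median SD of the 2 IUGR scores over all group members. Counts of CpGs and groups among these values changed by less than a set factor. The 53 included all values for p-values under 0.01, the sex chromosomes added, a margin of 1000 bases around regions, and matched groups counted once. The last setting was added after seeing the data. Without any 1 column the median absolute difference was 80.7 to 82.7. Directions cannot change there, since the groups overlap at no member. The unchanged shares by direction are counted among the 53 values and say nothing about stability. No paired analysis was possible because no test between the groups was run and the score columns are not tied to libraries. Coarse scores and unknown depth limit what equal scores can show.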
